A study of Homo sapiens with 5 samples.

Results

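The 8 transcription regulators examined here, PAX2, PAX8, LHX1, GATA3, SIX2, EYA1, SALL1 and WT1, are the textbook factors of the nephric lineage and of nephron progenitors. All 22 probe sets annotated to these 8 symbols were taken, of 54675 probe sets measured in total, and the 8 genes were among 19775 with a probe set of their own symbol. A probe set is a group of short oligonucleotides that together measure a transcript. The HG-U133 Plus 2.0 arrays carried RNA from HEK293, a transformed line grown from human embryonic kidney. One line was stably transfected with the empty pcDNA4 vector (3 arrays, called vector) and the other with a construct for PRL-1, the phosphatase encoded by PTP4A1 (2 arrays, called PRL-1). Each array came from an independent culture, but all cultures of a group came from a single stable line, so an effect of PRL-1 cannot be told apart from other differences that arose between the 2 lines. The p-values therefore weigh the difference between the lines against the spread between cultures of a line. The authors set aside a PRL-1 array because its RNA showed no raised PRL-1 by qRT-PCR. No further treatment, genotype or time point separated the groups.

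In the embryo the kidney arises from intermediate mesoderm. PAX2, PAX8, LHX1 and GATA3 act in the nephric duct and its ureteric bud branches, while SIX2, EYA1, SALL1 and WT1 act in the cap mesenchyme that surrounds the bud tips and holds the progenitors of the nephron. PAX2 and PAX8 share a DNA-binding paired domain, and PAX2, PAX8, LHX1 and WT1 are used again when the progenitors turn into epithelium. A bulk array cannot tell fewer cells with a transcript from less of that transcript per cell.

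The labels were examined first through PTP4A1. Over its 4 tested probe sets the log2 fold change was 0.06 to 0.15, with no call (limma adjusted p from 0.737 to 0.892). Whether their probes match RNA of the transgene could not be checked here. The authors report that in earlier work both RNA and protein of PRL-1 were raised in this stable line. On these arrays no such rise was called, so the direction PRL-1 minus vector below refers to the labels. The median signal of an array ranged from 124.2 to 166. Vector replicate 3 stood apart, with correlations of 0.938 to 0.947 with the other arrays, and was the highest or the lowest vector array in 13 of the 16 tested probe sets of the 8 factors, against 81.5% of all tested.

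Transcripts of 7 of the 8 factors were measured at or above a signal of 100 on all 5 arrays in at least 1 probe set, the exception being LHX1. The signal is the MAS5 intensity on a linear scale, and 100 was taken as the background level, which at most 1 of 15 bacterial control probe sets reached on any array. On each array 54.7 to 62.4% of all probe sets reached 100. HBB and CD3E, markers of blood, also did so on all 5 arrays, so reaching this level does not by itself show expression. Of the 22 probe sets, 13 lay at or above 100 on all 3 vector arrays, and the same number did so on all 5 arrays. That is 59.1%, compared with 54.4% of all probe sets with a single symbol. At the other end 3 probe sets, all of PAX8, were under 100 on every array. Signals of different probe sets depend on the probes and are not ranked against each other here.

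**Figure D1:**
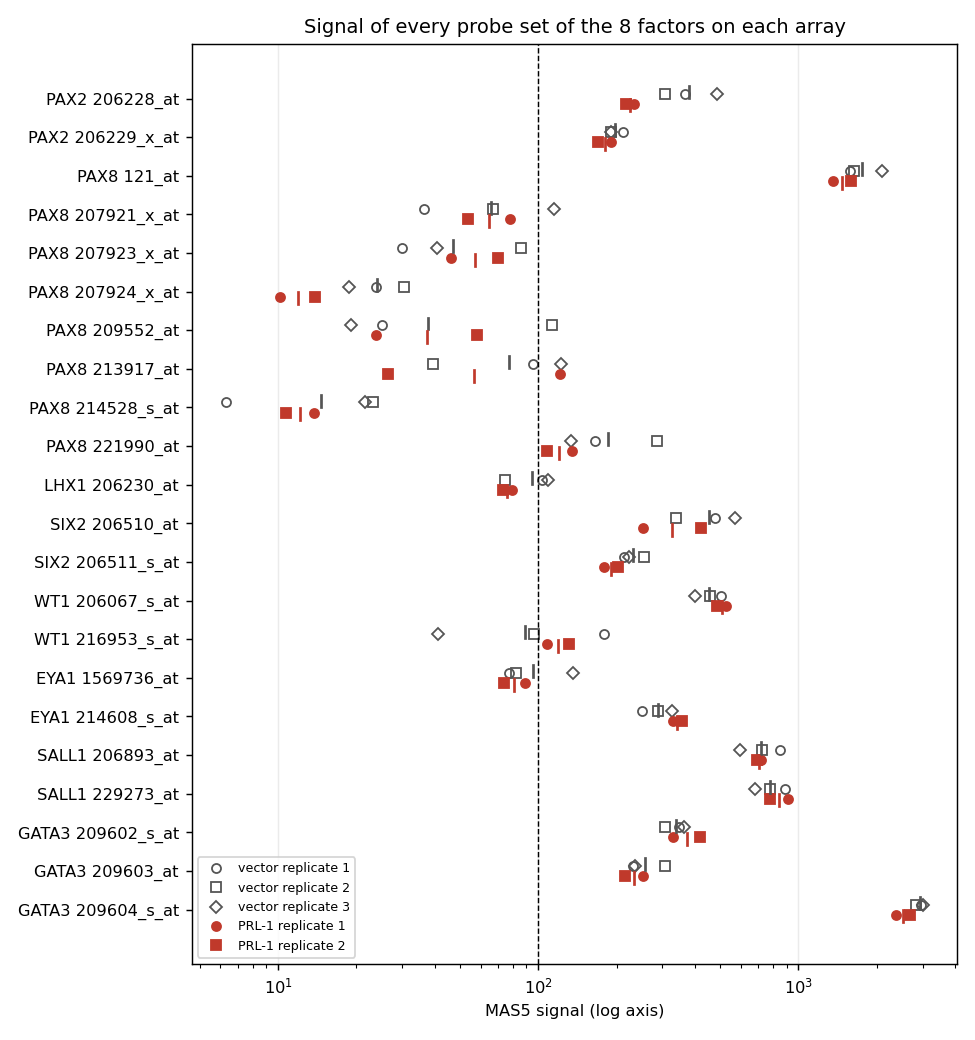
MAS5 signal (log axis) of all 22 probe sets of the 8 factors on the 3 vector arrays (open symbols) and the 2 PRL-1 arrays (filled symbols), with short bars at the geometric mean of each group and a dashed line at the background level of 100. In most rows open and filled symbols intermingle, and the PRL-1 arrays of PAX2 206228_at, at 232.7 and 218.1, lie below all vector arrays.

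None of the 16 tested probe sets was called higher or lower in PRL-1 cells. A probe set was tested when it reached 100 on at least 2 arrays, and it was called when limma's p-value, adjusted by Benjamini-Hochberg over all 33818 tested probe sets, was at or below 0.05. The count of calls was 0 of 16, where 0.192% of all tested probe sets were called, that is 0.0591% higher and 0.133% lower, so that a list of this size with no call does not stand out from the background. By unadjusted p under 0.05 the count was 1, PAX2 206228_at, or 6.25%, against 9.72% of all tested. The methods' own test on the same values gave 0 at an unadjusted p under 0.05. The median log2 fold change over the 16 was -0.18, compared with -0.04 over all tested, and 11 were below 0 (68.8%, against 55.1% of all tested). The groups did not overlap in 4 of the 16 (25.0%), compared with 28.9% of all tested. In 3 of these both PRL-1 arrays lay lower, where the share over all tested was 16.1%, and in 1 they lay higher, where it was 12.8%.

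A p-value above the threshold does not show that the levels are equal, so the intervals bound what the 5 arrays can say. The 95% interval stayed within a 2-fold difference in either direction for 10 of the 16 probe sets, and it reached past 2-fold for 6. Over all tested probe sets 70.3% stayed within. The smallest difference called anywhere on the array was 0.78 on the log2 scale, or 1.72-fold, and none of the 16 reached it. The median standard error was 0.23 for the 16 and 0.21 for all tested.

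**Figure D2:**
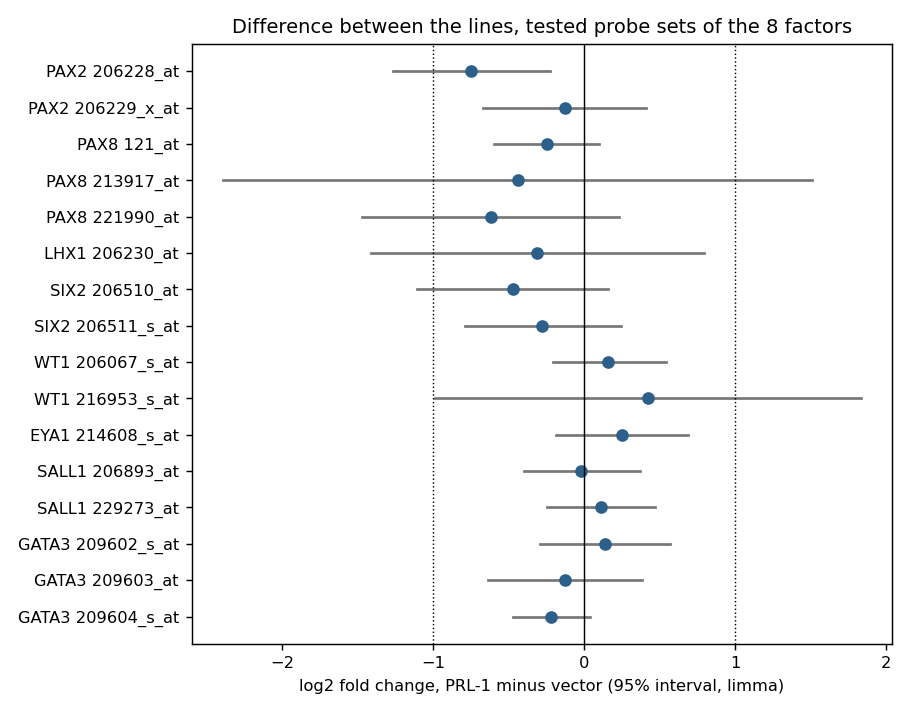
Difference of log2 signal, PRL-1 minus vector (dots), with its 95% interval from limma (lines) for the 16 tested probe sets; dotted lines mark 2-fold in either direction. Among the intervals that of PAX2 206228_at, from -1.27 to -0.23, is the one that leaves out 0, and PAX8 213917_at and WT1 216953_s_at have the widest.

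PAX2, a paired-box factor needed for the nephric duct and for epithelium formation from the mesenchyme, has 2 probe sets. On 206228_at the signals were 364.9, 307.6 and 488.3 in vector cells and 232.7 and 218.1 in PRL-1 cells. Both PRL-1 arrays were below the lowest vector array, and the means were 386.9 ± 92.3 (SD, n = 3) and 225.4 ± 10.4 (SD, n = 2). The log2 fold change was -0.75 (SE 0.23, 95% interval -1.27 to -0.23), a 1.69-fold difference that missed the threshold (limma adjusted p = 0.341). Without vector replicate 3, the array with the highest signal, it was -0.57 (limma adjusted p = 0.22).

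The other PAX2 probe set, 206229_x_at, gave 211.8, 189.9 and 190.9 in vector cells against 190.7 and 169.7. Here the groups overlapped and all 5 arrays lay close together. The suffix _x marks probe sets with probes that may match other transcripts as well. Its log2 fold change was -0.13 (95% interval -0.67 to 0.41, limma adjusted p = 0.889), and the difference between the 2 PAX2 probe sets was not tested.

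PAX8, the partner of PAX2 in the early nephric lineage and a lasting factor of renal tubule and thyroid, has 8 probe sets, of which 3 were tested. The signals of 121_at were 1576.7, 1629 and 2092 in vector cells and 1362.7 and 1595 in PRL-1 cells. The groups overlapped, since PRL-1 replicate 2 lay between vector replicates 1 and 2. The log2 fold change was -0.25 (95% interval -0.60 to 0.10, limma adjusted p = 0.645).

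The 221990_at probe set of PAX8 gave 164.8, 286.8 and 134 in vector cells and 134.9 and 107.8 in PRL-1 cells. Vector replicate 2 alone was far above the rest, and the log2 fold change of -0.62 had an interval from -1.47 to 0.23 (limma adjusted p = 0.634). The 213917_at probe set lay around background, with 95.1, 39.3 and 122.2 against 121.2 and 26.5. Its arrays of a group differed more than the groups did (log2 fold change -0.44, interval -2.39 to 1.51, limma adjusted p = 0.899), and its sign turned to 0.65 without PRL-1 replicate 2. The other 5 PAX8 probe sets failed the filter, with signals between 6.33 and 115.2, and were not tested. The probe sets of PAX8 thus disagreed on whether its RNA was above background, 2 of 8 being so on every array.

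LHX1, a LIM-homeodomain factor of the nephric duct and of the early nephron, has a single probe set. It gave 103.8, 74.7 and 108.7 in vector cells and 79 and 73.3 in PRL-1 cells. These signals straddle the background level in vector cells and stay under it on both PRL-1 arrays, so no fold is given (limma adjusted p = 0.868). The PRL-1 signals sat at or near that of vector replicate 2.

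GATA3, a zinc-finger factor of the nephric duct and later of the collecting duct, was measured by 3 probe sets, all tested and all at or above 100 on every array. The 209604_s_at signals were 2952.8, 2832.2 and 3001.5 in vector cells and 2370.5 and 2674.5 in PRL-1 cells. Vector arrays agreed closely, and both PRL-1 arrays lay below them. The log2 fold change was small, -0.22 (SE 0.11, 95% interval -0.47 to 0.04), and was not called (limma adjusted p = 0.571).

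The other GATA3 probe sets pointed in opposite directions. On 209602_s_at the signals were 346.6, 308.3 and 362.9 against 330.9 and 420.2, with a log2 fold change of 0.14 (95% interval -0.29 to 0.57). On 209603_at they were 232.3, 306.9 and 236 against 253 and 216.2, with -0.13 (95% interval -0.64 to 0.38). Both overlapped between groups (limma adjusted p = 0.844 and 0.882), and all 3 intervals of GATA3 stayed within 2-fold.

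SIX2, a homeodomain factor that keeps nephron progenitors undifferentiated, has 2 probe sets. On 206510_at the signals were 479.4, 339.6 and 569 in vector cells and 252.5 and 421.8 in PRL-1 cells. PRL-1 replicate 1 was the lowest of the 5 arrays, whereas replicate 2 lay within the vector range. The log2 fold change of -0.47 (95% interval -1.11 to 0.16, limma adjusted p = 0.628) rested largely on that array, being -0.10 without PRL-1 replicate 1 and -0.84 without replicate 2.

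The second SIX2 probe set, 206511_s_at, gave 213.8, 256 and 224.1 in vector cells and 179.2 and 202.2 in PRL-1 cells. Both PRL-1 arrays were below the vector arrays by a narrow margin. Its log2 fold change was -0.28 (95% interval -0.79 to 0.24, limma adjusted p = 0.728), the same sign as on 206510_at.

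**Figure D3:**
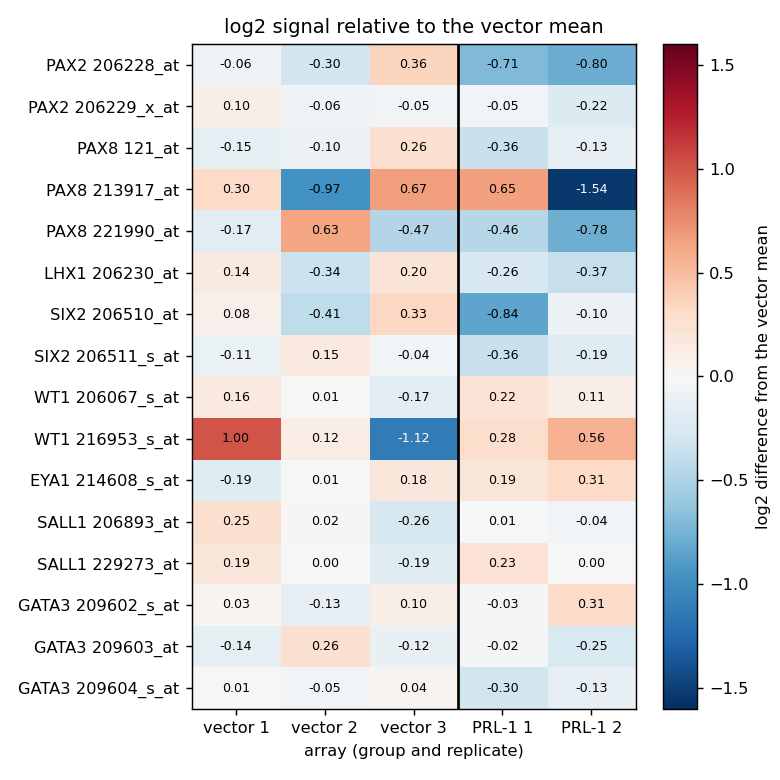
Log2 signal of each tested probe set on each array relative to the mean of the 3 vector arrays (printed and coloured, red above and blue below), with the vector arrays left of the black line and the PRL-1 arrays right of it. The 2 SIX2 and 2 PAX2 probe sets are among those below 0 on both PRL-1 arrays, and vector replicate 3 departs from the other vector arrays in either direction.

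For 3 of the factors with more than 1 tested probe set, PAX2, PAX8 and SIX2, every tested probe set had a log2 fold change below 0, none of them called. Their promoter sequences are shown to let the starts of these genes be compared, the choice having been made after the values were seen. They are RefSeq sequences on GRCh38.p14 that run from 250 bases before to 50 bases after an annotated start, 5′ to 3′ on the strand of the gene, and promoters of 5 of the 8 factors were matched. Capitals mark matches to 5 motifs, searched on both strands. The first is TATAAA, found where the basal machinery binds. The second is CCAAT, which the factor NF-Y recognises. The third, GGGCGG, is bound by Sp1 and its relatives. The fourth, AGATAA, is recognised by zinc-finger proteins such as GATA3. The last is GCGGGGGCG, a site of EGR proteins that WT1 can bind too.
SIX2, chr2:45009403-45009702, minus strand: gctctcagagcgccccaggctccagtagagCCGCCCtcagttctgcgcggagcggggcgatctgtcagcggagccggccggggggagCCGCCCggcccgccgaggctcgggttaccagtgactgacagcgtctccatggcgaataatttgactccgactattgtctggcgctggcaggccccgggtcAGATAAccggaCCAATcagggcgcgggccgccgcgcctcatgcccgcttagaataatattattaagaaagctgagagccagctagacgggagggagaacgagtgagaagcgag
PAX8, chr2:113278872-113279171, minus strand: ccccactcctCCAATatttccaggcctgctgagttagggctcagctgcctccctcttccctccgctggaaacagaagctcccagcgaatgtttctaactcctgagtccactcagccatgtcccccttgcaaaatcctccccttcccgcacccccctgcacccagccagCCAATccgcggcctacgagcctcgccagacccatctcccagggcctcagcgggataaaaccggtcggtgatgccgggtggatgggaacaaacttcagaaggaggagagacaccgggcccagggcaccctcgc
PAX2, chr10:100735146-100735445, plus strand: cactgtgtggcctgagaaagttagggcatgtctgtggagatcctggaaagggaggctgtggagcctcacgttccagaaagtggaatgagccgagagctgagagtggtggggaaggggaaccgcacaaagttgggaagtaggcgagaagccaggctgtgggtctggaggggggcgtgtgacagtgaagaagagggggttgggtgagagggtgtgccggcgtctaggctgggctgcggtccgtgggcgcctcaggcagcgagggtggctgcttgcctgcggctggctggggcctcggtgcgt
PAX2, chr10:100745332-100745631, plus strand: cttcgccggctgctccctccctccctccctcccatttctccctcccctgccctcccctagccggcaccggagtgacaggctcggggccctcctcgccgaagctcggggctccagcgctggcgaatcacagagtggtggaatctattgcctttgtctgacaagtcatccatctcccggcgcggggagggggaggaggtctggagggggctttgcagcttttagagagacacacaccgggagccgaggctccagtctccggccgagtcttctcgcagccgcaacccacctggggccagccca
The SIX2 window held CCAAT at position -52 and AGATAA at position -63, counted from the start, and GGGCGG on the reverse strand at -220 and -163. The PAX8 window held CCAAT at -240 and -82. The 2 PAX2 windows held none of the 5 motifs, which says only that these letters are not in these windows. Of all 35116 RefSeq promoters supplied, 34.6% held CCAAT, 45% GGGCGG, 11.5% TATAAA, 10.3% AGATAA and 5.07% GCGGGGGCG, some of the GCGGGGGCG matches overlapping GGGCGG. The 4 windows had GC contents of 64, 62, 63.7 and 66.7%, above the median of 58.7%. The array measured no activity or binding at these sites, and which start HEK293 cells use was not measured.

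EYA1, a coactivator with phosphatase activity that works with SIX2 in the progenitors, was measured by 2 probe sets, 1 of them tested. On 214608_s_at the signals were 251.4, 289.6 and 326.3 in vector cells and 328.7 and 356.7 in PRL-1 cells. Both PRL-1 arrays were above the highest vector array, though PRL-1 replicate 1 exceeded vector replicate 3 by little. The log2 fold change was 0.25 (95% interval -0.19 to 0.69, limma adjusted p = 0.713). The 1569736_at probe set reached 100 on vector replicate 3 alone, with 77, 82.4 and 135.7 against 88.7 and 73.8, and was not tested.

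SALL1, a zinc-finger repressor needed for ureteric bud outgrowth and for the progenitors, was measured by 2 probe sets, and both gave nearly the same signals in the 2 lines. On 206893_at the signals were 849, 723.6 and 597.1 in vector cells and 720 and 694.4 in PRL-1 cells, with the PRL-1 arrays inside the vector range (log2 fold change -0.02, 95% interval -0.40 to 0.37). On 229273_at they were 886.7, 774.5 and 679.5 against 909.4 and 774.7, again with overlap (0.11, interval -0.25 to 0.47). The limma adjusted p was 0.982 and 0.849. Both intervals exclude a doubling and a halving, and vector replicate 3 was the lowest vector array on both.

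WT1, a zinc-finger factor of progenitors and later of podocytes, the filter cells of the glomerulus, has 2 probe sets. On 206067_s_at the signals were 505, 456 and 401 in vector cells and 527.9 and 486.2 in PRL-1 cells. PRL-1 replicate 2 lay between vector replicates 1 and 2 (log2 fold change 0.16, 95% interval -0.21 to 0.54, limma adjusted p = 0.783). On 216953_s_at the vector arrays spread 4.35-fold, from 178.6 on replicate 1 through 96.6 to 41.1 on replicate 3, around PRL-1 signals of 108.3 and 131.7. Its log2 fold change of 0.42 (95% interval -0.99 to 1.83, limma adjusted p = 0.86) turned to -0.14 without vector replicate 3.

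Antisense transcripts of these genes, looked up after the values of the factors were seen, gave no call either. WT1-AS, transcribed opposite WT1, had signals of 132.3, 164.8 and 117.9 in vector cells and 95.4 and 119 in PRL-1 cells (log2 fold change -0.36, limma adjusted p = 0.774). All 3 probe sets of PAX8-AS1 and both of GATA3-AS1 failed the filter, and 1 of these 5 passed 100 on any array.

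The genes whose pattern over the 5 arrays was nearest to that of PAX2 206228_at were ATP8B1-AS1, RETREG1 and NPAS3. The measure was the root mean square difference of log2 signals centred on their own mean, and it was 0.022, 0.042 and 0.056. RETREG1, a receptor of endoplasmic reticulum autophagy, gave 440.1, 375.6 and 596.8 in vector cells and 304.8 and 272.8 in PRL-1 cells, so it too was highest on vector replicate 3 and lower on both PRL-1 arrays. With 5 arrays and 33818 probe sets to choose from, such likeness is a description.

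The 8 factors were then set among 29 measured paralogues of their families, since relatives can share a role in other tissues. Of 44 tested probe sets of 24 paralogues, 0 were called higher and 0 lower. Of these 44, 11 had an unadjusted p under 0.05, a larger share than the 9.72% of all tested. That gap was not tested. By the methods' own test the count was 10, against 2905 of all 33818 tested. Every tested SALL3 probe set was among the 11, and probe sets of the same gene are not independent. The median log2 fold change of the paralogues was 0.11 by gene, against -0.23 for the 8 factors and -0.03 for 14546 genes.

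**Figure D4:**
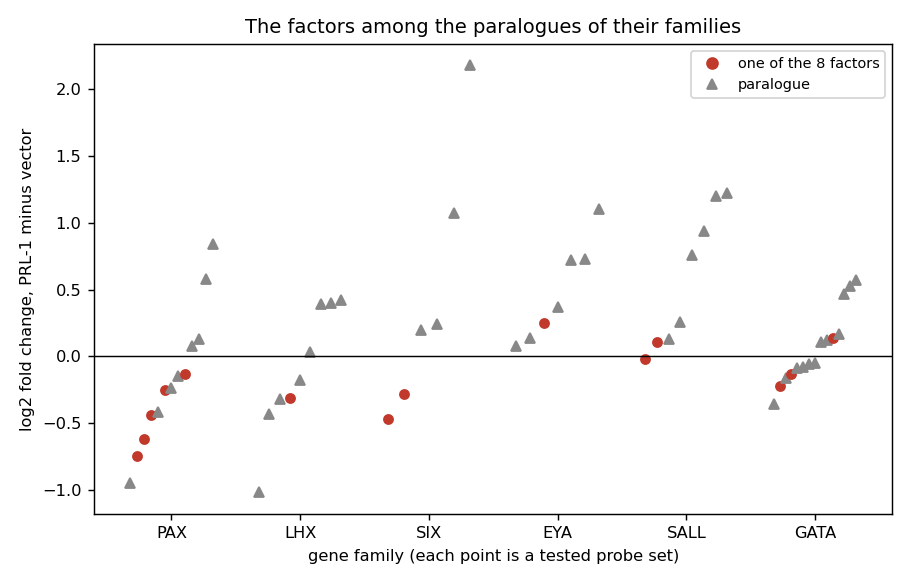
Log2 fold change, PRL-1 minus vector, of every tested probe set of the families of PAX2, LHX1, SIX2, EYA1, SALL1 and GATA3, with the factors of the kidney lineage as red dots and paralogues as grey triangles; no point is a called change. The SIX2 dots are below 0 while the triangles of that family lie above. The highest triangles of that family are SIX3, which is close to background. For SIX3 242054_s_at no exact fold is given, since every vector array lay under 100.

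In the PAX family PAX3, PAX6 and PAX9 also had a probe set at or above 100 on all 5 arrays, as PAX2 and PAX8 did. PAX6, the factor of eye and forebrain, gave 1571.6, 1468.8 and 1771.2 in vector cells and 1216.7 and 1176.5 in PRL-1 cells on 205646_s_at (log2 fold change -0.42, limma adjusted p = 0.337), the same direction as PAX2 206228_at and likewise highest on vector replicate 3. On the other PAX6 probe set it was -0.15 and the groups overlapped. Of the LIM-homeodomain relatives of LHX1, probe sets of LHX2, LHX3, LHX4, LHX6 and LHX9 were at or above 100 on every array, which the LHX1 probe set was not.

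SALL3, the close relative of SALL1, gave 364.3, 383.6 and 268.8 in vector cells and 720.7 and 815.8 in PRL-1 cells on 230785_at, with a log2 fold change of 1.20 (95% interval 0.75 to 1.64, limma adjusted p = 0.082). All 4 tested SALL3 probe sets were higher on both PRL-1 arrays, with log2 fold changes of 0.76 to 1.22, but none was called. Without vector replicate 3 the 230785_at probe set was called (1.04, limma adjusted p = 0.0126), a setting in which 0.926% of all tested probe sets were called. The mean log2 fold change over probe sets was 1.03 for SALL3 and 0.05 for SALL1. With 3 against 2 arrays an exact permutation test of such a gap cannot go below 0.1, so the values are set side by side as a description.

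All 7 tested probe sets of the EYA family, EYA1 among them, were above 0, between 0.08 and 1.10, with 0 called. They come from 4 genes, and over all tested probe sets 55.1% were below 0. EYA2 209692_at gave 216.5, 211.9 and 265.8 in vector cells and 403.7 and 358.9 in PRL-1 cells, with a log2 fold change of 0.73 (95% interval 0.27 to 1.18, limma adjusted p = 0.301), and its interval overlapped that of EYA1. EYA4 gave 194, 536.2 and 567.4 against 997.3 and 695.2 on 207327_at (1.10, limma adjusted p = 0.454) and 0.08 on its other tested probe set. For EYA3 the 3 tested probe sets gave 0.14, 0.37 and 0.72, with groups that overlapped. The 0.72 came from 206379_at, which lay near background, with a 95% interval of -0.86 to 2.3.

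**Figure D5:**
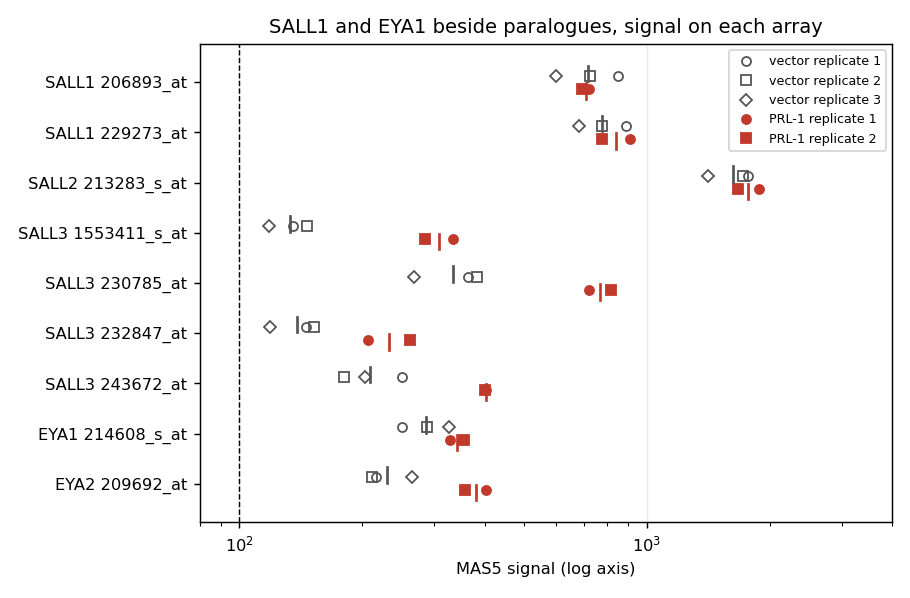
MAS5 signal (log axis) of the probe sets of SALL1, SALL2, SALL3, EYA1 and EYA2 on the 3 vector arrays (open) and the 2 PRL-1 arrays (filled), with group geometric means as short bars and a dashed line at 100. The SALL1 and SALL2 symbols of both groups intermingle, whereas all 4 SALL3 rows and EYA2 have both filled symbols to the right of the open ones. The EYA1 row has them so too, by a narrow margin.

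Transcription factors that work beside the 8 were also without a call. Of 47 probe sets of 27 tested partners in the nephric lineage, 0 were called higher and 0 lower. Their median log2 fold change was -0.12 by gene. Of these 47, 12 had an unadjusted p under 0.05, a larger share than the 9.72% of all tested. That gap was not tested. By the methods' own test the count was 7, against 2905 of all 33818 tested. Some of the 12 belong to the same gene, and EYA2 209692_at was counted among the paralogues as well. DACH1, a cofactor of SIX2 and EYA1, had both PRL-1 arrays above the vector arrays on its 3 probe sets, with log2 fold changes of 0.47 to 0.49 (limma adjusted p from 0.407 to 0.522). SOX9, a factor of the ureteric tips, had both PRL-1 arrays lower on 2 probe sets, with -0.39 and -0.50 (adjusted p = 0.509 and 0.422). FOXD1, which marks the progenitors of renal stroma and not those of the nephron, gave 1713.5, 1810.7 and 1743.9 against 1756.7 and 1654.7.

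Of 60 probe sets of 21 tested signalling genes of kidney morphogenesis, 0 were called higher and 0 lower. Their median log2 fold change was 0.05 by gene. Of these 60, 17 had an unadjusted p under 0.05, a larger share than the 9.72% of all tested. That gap was not tested. By the methods' own test the count was 16, against 2905 of all 33818 tested. ETV4, ETV5 and FGF9 each gave more than 1 of the 17. ETV4 and ETV5, targets of RET and FGF signals at the ureteric tips, came nearest in adjusted p together with FGF9, a ligand that maintains SIX2 progenitors. FGF9 206404_at gave 1054.3, 983.4 and 843.3 in vector cells and 1445.6 and 1556.1 in PRL-1 cells (log2 fold change 0.65, limma adjusted p = 0.201). ETV4 1554576_a_at gave 110.9, 129.8 and 52.9 against 359.6 and 356.5 (adjusted p = 0.193), its vector signals lying near background. Without vector replicate 3 both of these probe sets were called (limma adjusted p = 0.0458 for FGF9 and 0.0217 for ETV4). In that setting 0.926% of all tested probe sets were called. FGF9 239178_at and ETV4 211603_s_at were not called in it (limma adjusted p = 0.227 and 0.111).

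Markers of differentiated kidney cells and of other cell types the line could resemble were read for comparison with the 8 factors. At or above 100 on all 5 arrays were 6 of 11 podocyte genes on the array, 5 of 23 genes of tubule and collecting duct, 7 of 11 of renal stroma, 1 of 8 of adrenal cortex, 2 of 8 of the sympathoadrenal lineage and 4 of 11 of endothelium and blood. Of all genes on the array, 12224 of 19775 were so, and these counts alone therefore do not show a cell type. Between the lines 0 probe sets were called higher and 0 lower in each of these lists. Their median log2 fold changes by gene were -0.16, -0.11, -0.06, -0.08, -0.06 and -0.19 in the same order. The summed signal of the sympathoadrenal list was 1166 to 1276 on vector arrays and 946 to 984 on PRL-1 arrays. ISL1, a LIM-homeodomain relative of LHX1, gave 694.1, 681.4 and 592.2 against 424.4 and 439.6 (limma adjusted p = 0.266). The other tested genes of that list did not share this difference. CHGB, near background, and PNMT overlapped between groups, with log2 fold changes of 0.38 and -0.06. For podocytes the summed signal was 21164 to 31520 and 21885 to 22146, most of it from PTPRO (15671.5, 18404.4 and 26547.7 against 16269.6 and 16302.2). For tubule and collecting duct it was 2212 to 3776 and 2209 to 2884, and for stroma 8704 to 8861 and 8468 to 8757. For adrenal cortex it was 453 to 632 against 407 to 471, and for endothelium and blood 1632 to 2256 against 1424 to 1575. The part of other cell types or states in the signals of the 8 factors was not tested.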

How the data were processed

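Total RNA of 5 HEK293 cultures was measured on HG-U133 Plus 2.0 arrays. The authors read the arrays with the affy library of Bioconductor and deposited MAS5 signals, which are unlogged intensities for each probe set. MAS5 subtracts mismatch probes, takes a robust mean over probe pairs and scales each array, here to a trimmed mean of 500. MAS5 is noisy at low signal, and presence calls were not used here. Genes were named through the platform annotation, in which 41091 probe sets had 1 symbol, 1801 several and 11721 were not listed. Some listed genes are not reported here. No probe coordinates are printed, since the build behind the array's design was not found in the sources.

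The tests ran on log2 signals in limma 3.58.1 (lmFit, eBayes with trend) under R 4.3.3. Group was the sole term, tests were two-sided, and 62 control probe sets were left out. No exact fold is printed where a group has every array under 100, though counts, medians and figures include the log2 difference of such probe sets. Precision is limited by the number of arrays. The fit was tested on simulated data. Alternatives covered the filter, a log offset of 32, quantile normalization, median centring, eBayes without trend, the methods' t-test, a replicate block and each array left out in turn.

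Named were all probe sets of the 8 factors and, in the lists of paralogues, partners, signalling genes and markers, called genes, the 4 with the smallest adjusted p and the 3 with the highest vector signal, of which some are printed, and the 3 genes most like PAX2 206228_at. PTP4A1, SIX3, EYA4, the antisense genes, and LHX2, LHX3, LHX4, LHX6, LHX9 and PAX3 were named outside this rule. The members and lists were chosen with earlier results of these data known. For medians by gene, each gene was represented by its tested probe set of highest mean log2 signal.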

Additional observations from a re-analysis of the deposited data

How the results depend on the processing

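No probe set of the 8 factors was called under any of the 13 alternatives run. All 203 recomputed values stayed uncalled, the lowest limma adjusted p being 0.187 (PAX2 206228_at with the replicate block, log2 fold change -0.57), and 10 of the 16 tested probe sets kept 1 sign throughout. For PAX2 206228_at the log2 fold change ranged from -0.91 to -0.57. With the background level at 50 or 200 in place of 100, 15 or 11 of the 22 probe sets in place of 13 lay at or above it on all vector arrays. The number of calls over the whole array, 65, was 9 without the trend and 448 with the replicate block. By the methods' t-test it was 0 (2905 at an unadjusted p under 0.05). Leaving out 1 vector array gave 27 to 313 calls, 313 being without vector replicate 3. The block fits that array exactly, since no PRL-1 array used here carries its number. The log2 fold changes with the block therefore equal those without that array, and these settings are not separate checks. The cause of the spread in the counts was not tested. Where a PRL-1 array was left out, the other was taken to vary as the vector arrays do. Among paralogues 1 probe set (SALL3 230785_at) was called with the block (adjusted p = 0.013) and leaving out 1 array gave 0 to 1; among signalling genes 1 was called with the block (FGF9, adjusted p = 0.0422) and leaving out 1 array gave 0 to 2; among sympathoadrenal markers 1 was called with the block (ISL1, adjusted p = 0.049). The labels state no pairing of same-numbered arrays. Their deviations from the group means correlated at 0.064 and -0.059. With 2 PRL-1 arrays those deviations mirror each other, so these values can neither show nor exclude a shared batch. Whether the block reflects a pairing was therefore not settled. Low signals, such as those of LHX1 and 6 untested probe sets, are limited by background.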
